A study of Mus musculus with 6 samples.

Results

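The WNT ligands described here are 10 mouse genes (Wnt3, Wnt3a, Wnt4, Wnt5a, Wnt5b, Wnt7a, Wnt7b, Wnt10a, Wnt10b and Wnt11), read from every probe set of the array that was annotated to exactly 1 of these symbols. They were measured by 18 of 45037 probe sets, or 10 of the 18193 genes that the array covers with a probe set of their own. A probe set is a group of short probes against 1 transcript, placed mostly toward its 3' end. Wnt3, Wnt3a, Wnt10a, Wnt10b and Wnt11 had 1 probe set, Wnt4, Wnt5b and Wnt7b had 2, Wnt7a had 3 and Wnt5a had 4.

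Epithelial cells of the vibrissa bulge, the stem cell region of the whisker follicle, came from mice of 7 to 8 weeks and were cultured for 6 days in atelocollagen gel. NFFS medium contained the growth factors FGF7 and FGF10, Noggin, which blocks BMPs, and SAG, which activates the hedgehog pathway, and NFFSE medium contained EGF besides these. In each of 3 experiments the cells were divided between both media, which gave 3 NFFSE and 3 NFFS arrays of total RNA (100 ng each). The sources used here tie no strain, allele or sex to the arrays, and neither medium held an added WNT ligand. Microdissection took every cell of the bulge, niche cells included, so that the cultures were not purified stem cells.

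WNT ligands are secreted glycoproteins that carry a lipid added by the acyltransferase PORCN and are handed to the cell surface by the carrier WLS. At the receiving cell they bind Frizzled receptors with either LRP5/6, which stabilizes beta-catenin and turns on TCF/LEF target genes, or ROR and RYK co-receptors, which act through planar cell polarity and calcium signaling. In the hair follicle, beta-catenin signaling is required for placode formation and for the entry of bulge and germ cells into a new growth phase. Wnt10a, Wnt10b, Wnt3, Wnt3a, Wnt7a and Wnt7b are best known as beta-catenin ligands, Wnt5a, Wnt5b and Wnt11 as ligands of the other arm, and Wnt4 has been tied to both.

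NFFSE-cultured cells held more Wnt10a and Wnt4 RNA and less Wnt5b, Wnt7b and Wnt5a RNA than NFFS-cultured cells. Wnt10a was 4.15-fold higher in NFFSE and Wnt4 was 1.45-fold higher, whereas Wnt5b was at least 4.96-fold lower, Wnt7b 1.54-fold lower and Wnt5a 1.58-fold lower, each at its brightest probe set. Only Wnt10a was called there under all 15 alternative settings. The call ended under 2 of them for Wnt5b, 4 for Wnt4, 7 for Wnt7b and 11 for Wnt5a. Not every probe set of Wnt4 and Wnt5a was called. Wnt7a, Wnt10b, Wnt11, Wnt3a and Wnt3 did not pass the test. The level of a probe set cannot be set against that of another on these arrays, so that values are compared between media only.

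The values are MAS5 signals, an intensity on a linear scale, and the test was limma on log2 signals as the NFFSE mean minus the NFFS mean, adjusted by Benjamini and Hochberg over all 45037 probe sets, with a call at an adjusted p under 0.05. Folds are antilogs of the log2 differences. In bulk RNA, fewer cells of a type and less RNA in each cell cannot be told apart. A signal at or below 22.7, the highest of 18 values of control probe sets for a transcript that mouse cells lack, is called background. A fold against a medium with arrays at background is given as a lower bound, with those arrays set to that level. Such a bound is a point value and does not take in the spread between arrays.

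**Figure D1:**
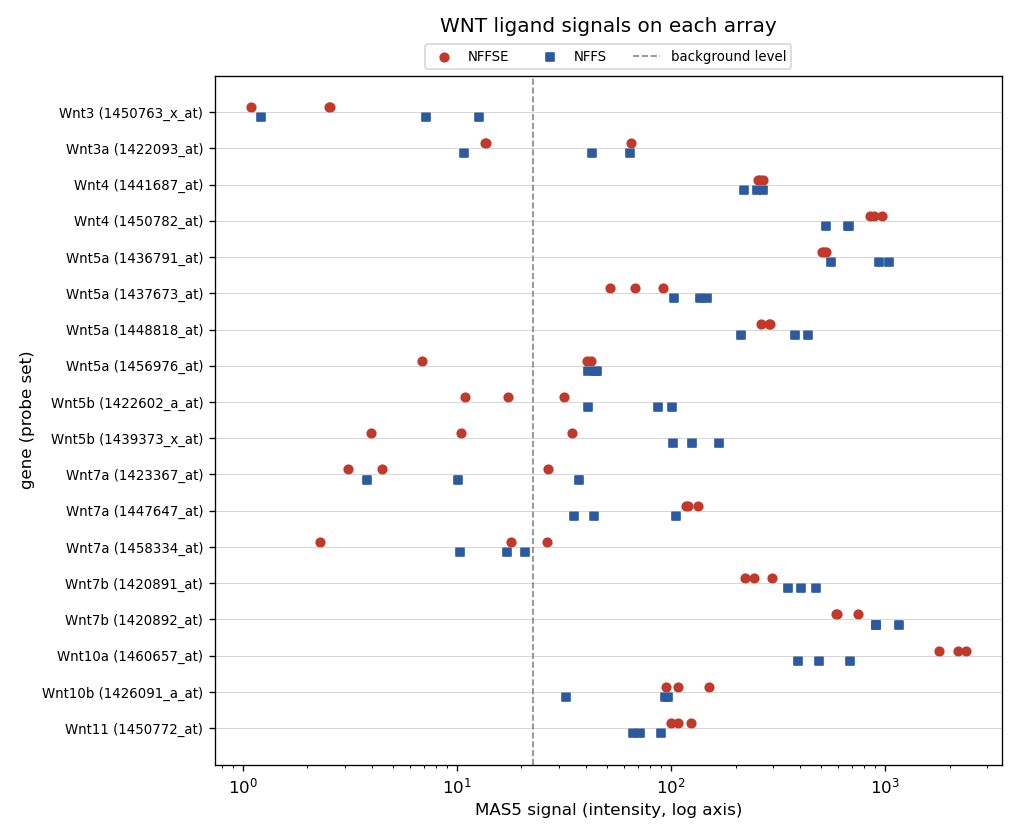
MAS5 signal (intensity, log axis) of each of the 18 WNT ligand probe sets on each array, with NFFSE arrays as red circles, NFFS arrays as blue squares and the background level of 22.7 as a dashed line. The 3 NFFSE points of Wnt10a, from 1786 to 2390.4, lie far to the right of its NFFS points, from 391 to 684, and 4 of the 6 Wnt5b points in NFFSE lie left of the dashed line.

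Promoter sequences are shown for the called ligands that had an entry in RefSeq (GRCm38.p6), namely Wnt4, which was higher in NFFSE, and Wnt5b, which was lower, to set out what lies before the starts of ligands that moved in opposite directions. In all, 7 of the 10 genes matched, with 10 starts. Each sequence is the 250 bases before the annotated start, 5′ to 3′ on the strand of the gene, with capitals marking a match to the AP-1 motif TGANTCA or the TCF/LEF motif CTTTGAT on either strand.
Wnt4 (chr4:137277385-137277634, plus strand): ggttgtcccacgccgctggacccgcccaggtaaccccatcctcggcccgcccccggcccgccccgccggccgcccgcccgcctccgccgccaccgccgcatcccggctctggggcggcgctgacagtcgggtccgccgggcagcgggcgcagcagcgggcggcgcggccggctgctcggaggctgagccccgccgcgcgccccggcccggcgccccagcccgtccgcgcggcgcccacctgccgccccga
Wnt5b, the start farthest upstream (chr6:119544348-119544597, minus strand): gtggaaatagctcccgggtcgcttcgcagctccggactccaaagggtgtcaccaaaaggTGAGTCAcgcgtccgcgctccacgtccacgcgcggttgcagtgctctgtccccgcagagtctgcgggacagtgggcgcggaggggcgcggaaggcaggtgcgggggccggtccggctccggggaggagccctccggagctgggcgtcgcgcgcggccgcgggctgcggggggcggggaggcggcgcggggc
Wnt5b, the middle start (chr6:119467212-119467461, minus strand): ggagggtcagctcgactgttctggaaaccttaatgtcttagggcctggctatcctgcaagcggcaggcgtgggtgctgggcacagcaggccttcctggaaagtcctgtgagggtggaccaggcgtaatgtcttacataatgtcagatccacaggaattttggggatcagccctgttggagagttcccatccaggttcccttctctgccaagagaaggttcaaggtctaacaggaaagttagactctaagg
Wnt5b, the start farthest downstream (chr6:119449387-119449636, minus strand): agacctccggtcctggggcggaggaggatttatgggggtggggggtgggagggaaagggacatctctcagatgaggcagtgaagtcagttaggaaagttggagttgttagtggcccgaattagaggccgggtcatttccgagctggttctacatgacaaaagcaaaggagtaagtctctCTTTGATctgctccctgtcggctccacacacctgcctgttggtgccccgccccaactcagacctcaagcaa
The window searched, 250 bases before to 50 after the start, held neither motif at Wnt4. At Wnt5b the upstream start had an AP-1 match (191 bases before the start), the middle start had neither, and the downstream start had a TCF/LEF match (71 bases before the start). Of 32851 promoters of the same length, 7.81% held an AP-1 match and 3.73% a TCF/LEF match. The probe sets do not tell which Wnt5b start was in use, and a match is a run of letters, not a measured binding site.

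Of the 18 probe sets, 2 were called higher in NFFSE (11.1%) and 5 were called lower (27.8%), beside 7.69% and 12.7% of all probe sets, and 11 were not called. Without adjustment, 3 were higher and 6 lower at a p under 0.05 in limma. With each gene read from its brightest probe set, 2 of the 10 were higher and 3 were lower, beside 10.6% and 15.0% of all genes. All NFFSE arrays lay above all NFFS arrays for 4 of the 18 probe sets and below them for 6 (14.8% and 21.4% of all probe sets). The median log2 difference over the 18, of which 4 are from Wnt5a, was -0.60, beside -0.065 over all probe sets. It was -0.17 without NFFSE replicate 2 and -0.20 with signals below background raised to it, and over the 10 genes at their brightest probe sets it was 0.049, beside -0.012 over all genes. Wnt5b and Wnt7b were called at both of their probe sets, Wnt4 at 1 of 2 and Wnt5a at 1 of 4, and the uncalled probe sets of Wnt4 and Wnt5a had differences of the same sign.

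With each array centered on its median in place of the authors' scaling, which moved the median difference of all probe sets by 0.20 on the log2 scale, 3 ligand probe sets were called higher (Wnt10a, Wnt4 and Wnt7a) and 2 lower (both of Wnt5b). Over all probe sets this setting called 11.0% higher and 8.09% lower, and 57.7% of its calls were higher, in place of 37.8%. Wnt7b and Wnt5a lost their calls there, although both kept their direction.

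**Figure D2:**
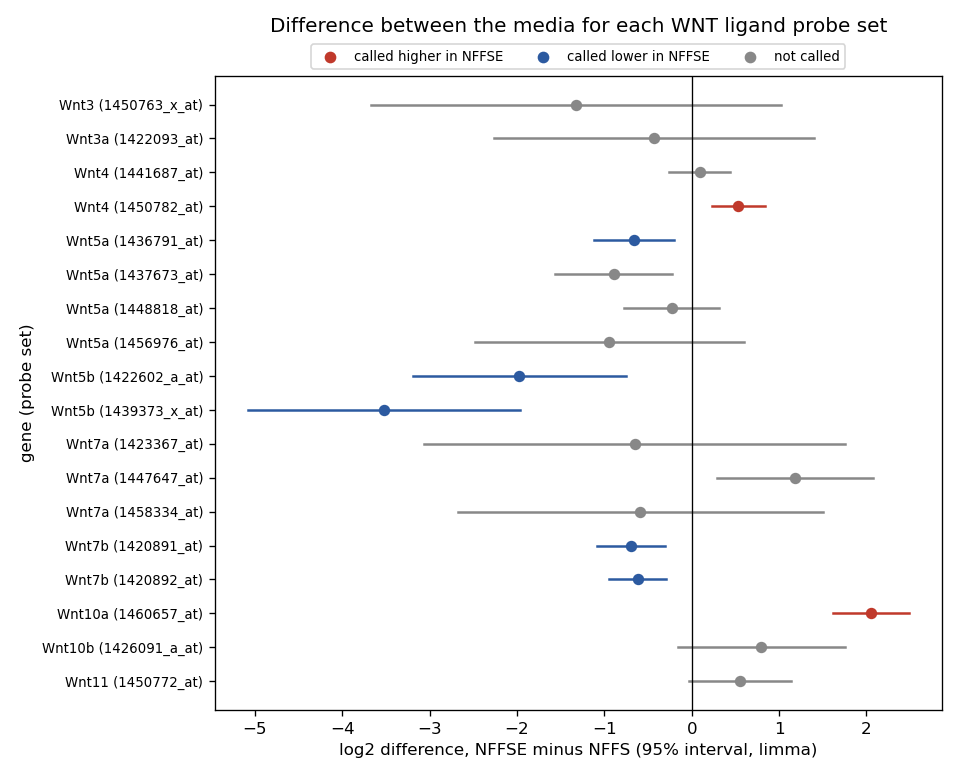
Log2 difference (NFFSE minus NFFS, horizontal axis) of each WNT ligand probe set with its 95% interval from limma, in red where called higher in NFFSE, blue where called lower and gray where not called. Wnt10a, at 2.05, has a narrow interval well above 0, whereas the intervals of Wnt5b are wide and lie wholly below 0, around -3.52 and -1.97.

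Wnt10a differed between the media with the smallest p of the 18 probe sets. It is a beta-catenin ligand of the follicle placode and hair matrix, and loss of its human counterpart causes sparse hair and missing teeth. Its probe set (1460657_at) read 2199.6, 2390.4 and 1786 in NFFSE and 684, 493 and 391 in NFFS. The lowest NFFSE array was above the highest NFFS array by a wide margin. The means were 2125 ± 309 (SD, n = 3) and 523 ± 149 (SD, n = 3), a log2 difference of 2.05 (SE 0.20, 95% interval 1.62 to 2.49, adjusted p = 5.8e-05, limma), or 4.15-fold (3.07 to 5.60). Within the 3 experiments the log2 difference was 1.69, 2.28 and 2.19. Wnt10a was called under each of the 15 alternative settings tried, among which were the methods' t-test and the omission of any array.

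Wnt7b, a ligand of bulge and outer root sheath cells, was lower in NFFSE at both probe sets. The brighter probe set (1420892_at) read 749.7, 592 and 594 in NFFSE and 1158, 909 and 907 in NFFS. Its means were 645 ± 90.4 (SD, n = 3) and 991 ± 144 (SD, n = 3) and differed by -0.62 on the log2 scale (SE 0.15, adjusted p = 0.013, limma), or 1.54-fold lower (1.22 to 1.93). The other probe set (1420891_at) read 296, 220.3 and 245 in NFFSE and 476, 405 and 352 in NFFS, 1.62-fold lower (1.24 to 2.12, adjusted p = 0.018, limma). The arrays of the media did not overlap at either probe set, and the brighter probe set fell by nearly the same amount in every experiment, with log2 differences of -0.63, -0.62 and -0.61. Both calls ended with the arrays centered on their medians (adjusted p = 0.14 and 0.12, limma), and without NFFSE replicate 2 (0.062 and 0.074), NFFSE replicate 3 (0.052 at each) or NFFS replicate 1 (0.0501 and 0.071), while the log2 differences stayed between -0.81 and -0.50 without 1 array and were -0.42 and -0.50 with centered arrays.

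Wnt7a, the close paralog of Wnt7b, was not called. Its brightest probe set (1447647_at) read 134, 119.6 and 118 in NFFSE and 106, 43.7 and 35.1 in NFFS. All 3 NFFSE arrays lay above the NFFS arrays, with NFFS replicate 1 closest to them. The log2 difference was 1.18 (SE 0.40, 95% interval 0.29 to 2.07, adjusted p = 0.065, limma). It passed the test with the experiments as a block (adjusted p = 0.037, limma), without NFFS replicate 1 (0.0080, log2 difference 1.66) and with the arrays centered on their medians (0.041). The other probe sets of Wnt7a were at background on 4 and 5 of the 6 arrays (1423367_at and 1458334_at), and differed by -0.66 and -0.59 on the log2 scale (adjusted p = 0.75 and 0.74, limma).

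Wnt10b, the paralog of Wnt10a, acts in placodes and at the onset of hair growth. Its probe set (1426091_a_at) read 150.03, 94.5 and 108 in NFFSE and 93.7, 96.7 and 32.3 in NFFS. The media overlapped, and the lowest value, far from the others, was that of NFFS replicate 3. The log2 difference of 0.79 (95% interval -0.16 to 1.75, adjusted p = 0.25, limma) was 0.27 without that array, and its interval holds both 0 and the size of the difference of Wnt4.

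Wnt3a, widely used as a recombinant beta-catenin ligand, read 13.5, 13.6 and 64.7 in NFFSE and 10.8, 42.9 and 64.0 in NFFS at its probe set (1422093_at). In both media replicate 3 was the highest and replicate 1 the lowest or near it, and 3 of the 6 arrays were at background. The log2 difference was -0.44 (95% interval -2.27 to 1.39, adjusted p = 0.78, limma). Wnt3, which acts in the hair matrix, was at background on all 6 arrays (1450763_x_at, from 1.09 to 12.7), so that no fold is given. These values do not show that either RNA was absent, only that the array did not separate it from background.

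Wnt4, a ligand of epidermal and follicular keratinocytes, was higher in NFFSE at 1 of its 2 probe sets. The brighter probe set (1450782_at) read 966, 889 and 849.9 in NFFSE and 672, 527 and 677 in NFFS. Its lowest NFFSE array exceeded its highest NFFS array. The means were 901 ± 59.0 (SD, n = 3) and 626 ± 85.1 (SD, n = 3) and differed by 0.53 on the log2 scale (SE 0.13, adjusted p = 0.018, limma), or 1.45-fold (1.18 to 1.78). The call ended without NFFSE replicate 1 (adjusted p = 0.070, limma) or NFFSE replicate 2 (0.058), with log2 differences of 0.48 and 0.54. The dimmer probe set (1441687_at) read 260.3, 255 and 269.7 in NFFSE and 253, 219 and 269 in NFFS. There the media overlapped, and the log2 difference was 0.089 (95% interval -0.26 to 0.44, adjusted p = 0.77, limma).

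Wnt5b, a ligand close to Wnt5a in sequence, was lower in NFFSE at both probe sets. Its brighter probe set (1439373_x_at) read 34.3, 10.4 and 3.95 in NFFSE and 102, 168 and 126 in NFFS. NFFSE replicates 2 and 3 were at background and every NFFS array was above it. It differed by -3.52 on the log2 scale (SE 0.70, 95% interval -5.08 to -1.97, adjusted p = 0.0051, limma), given as at least 4.96-fold lower. The call held with any 1 array left out (adjusted p up to 0.026, limma), and ended with the methods' t-test and in limma with no trend. The other probe set (1422602_a_at) read 31.5, 10.9 and 17.4 in NFFSE and 41.0, 87.1 and 101 in NFFS. It was at least 2.81-fold lower (log2 difference -1.97, 95% interval -3.19 to -0.75, adjusted p = 0.028, limma), and again 2 of its 3 NFFSE signals were at background. That call ended without NFFSE replicate 2 (adjusted p = 0.084, limma), NFFSE replicate 3 (0.063), NFFS replicate 2 (0.096) or NFFS replicate 3 (0.12), with log2 differences of -1.61, -1.94, -1.83 and -1.72. It also ended with signals raised to background, with the methods' t-test and in limma with no trend. NFFSE replicate 1 held the highest Wnt5b signal of its medium at both probe sets. The ending of the brighter probe set's name marks probes that can also match other transcripts.

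Wnt5a, a ligand of planar cell polarity that is known from the dermal papilla and the follicle epithelium, was called at 1 of its 4 probe sets. Its brightest (1436791_at) read 529, 509 and 516 in NFFSE and 937, 559 and 1045 in NFFS. The NFFSE arrays were close together, and NFFS replicate 2 lay just above them. The means were 518 ± 10.3 (SD, n = 3) and 847 ± 255 (SD, n = 3) and differed by -0.66 on the log2 scale (SE 0.21, adjusted p = 0.048, limma), or 1.58-fold lower (1.15 to 2.17). The call ended under 11 of the 15 alternatives, among them the omission of NFFSE replicate 1 (adjusted p = 0.10, limma), 2 (0.13) or 3 (0.11) and of NFFS replicate 1 (0.16) or 3 (0.17), whereas without NFFS replicate 2 it was 0.00084 (log2 difference -0.93).

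The other Wnt5a probe sets were not called, and their log2 differences had the same sign. Probe set 1437673_at read 67.8, 51.7 and 91.4 in NFFSE and 147, 103 and 136 in NFFS, with no overlap and a log2 difference of -0.90 (adjusted p = 0.062, limma), which was 0.046 with the experiments as a block and 0.039 without NFFSE replicate 3. Probe set 1448818_at read 286, 288 and 264 in NFFSE and 377, 213 and 438 in NFFS. Here NFFS replicate 2 was the lowest of all 6 arrays, and the log2 difference was -0.23 (adjusted p = 0.59, limma), or -0.54 without it (0.040). The dimmest (1456976_at) read 42.3, 6.86 and 40.3 in NFFSE and 44.8, 45.3 and 41.0 in NFFS (log2 difference -0.94, adjusted p = 0.41, limma), and the difference rested on NFFSE replicate 2, which was at background, since it was -0.081 without that array.

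Wnt11, a ligand of planar cell polarity, read 108, 124 and 100.05 in NFFSE and 89.4, 71.3 and 66.6 in NFFS (1450772_at). The media did not overlap, but the log2 difference of 0.55 (SE 0.26, 95% interval -0.031 to 1.14) did not pass the test (adjusted p = 0.18, limma).

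**Figure D3:**
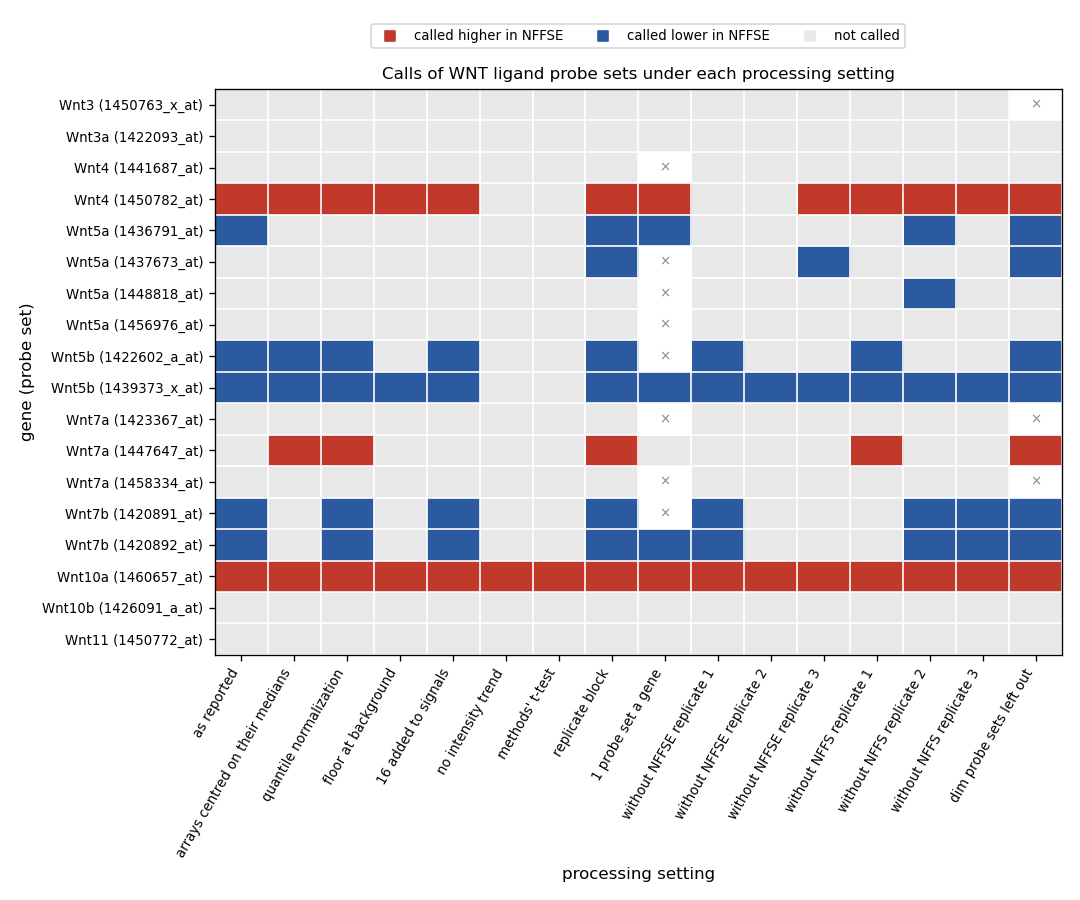
Calls of each WNT ligand probe set (rows) as reported and under 15 other processing settings (columns), in red where called higher in NFFSE, blue where called lower, light gray where not called, and with a cross where the setting left the probe set out. The row of Wnt10a is red in every column, and Wnt5b 1439373_x_at is blue in all but 2 columns.

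Several ligand genes lie beside another WNT gene on the chromosome, and the pairs did not always move together. Wnt10a and Wnt6 are neighbors on chromosome 1. Wnt6 (1419708_at) had a mean signal of 150.1 ± 25.8 (SD, n = 3) in NFFSE against 315 ± 69.9 (SD, n = 3) in NFFS and was thus lower by 2.08-fold (adjusted p = 0.0054, limma), while Wnt10a was 4.15-fold higher. The dimmer probe set of Wnt6 (1435980_x_at) was also lower (at least 2.44-fold, adjusted p = 0.027, limma), and 2 of its 3 NFFSE signals were at background. That call held in only 1 of the 6 omissions of 1 array (adjusted p up to 0.095, limma). The name of this probe set has the same ending as that of the brighter Wnt5b probe set. The arrays of the media did not overlap for either gene, and these neighbors were called in opposite directions.

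Wnt3a and Wnt9a are neighbors on chromosome 11. Wnt9a (1436978_at) had a mean signal of 196 ± 35.6 (SD, n = 3) in NFFSE against 111 ± 27.1 (SD, n = 3) in NFFS, 1.79-fold higher (adjusted p = 0.041, limma), a call that ended under 8 alternatives. Its dimmer probe set (1425889_at) was not called (log2 difference 1.68, adjusted p = 0.19, limma), with 1 NFFS array at background. Wnt1, beside Wnt10b on chromosome 15, had a log2 difference of 1.84 (adjusted p = 0.076, limma) with all 3 NFFS arrays at background. Wnt9b, beside Wnt3 on chromosome 11, was at background on 4 of 6 arrays. Of the 9 other WNT ligands measured, 1 was higher (Wnt9a), 1 was lower (Wnt6) and 7 were not called, which is 11.1% in each direction, near the 10.6% and 15.0% of all genes.

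**Figure D4:**
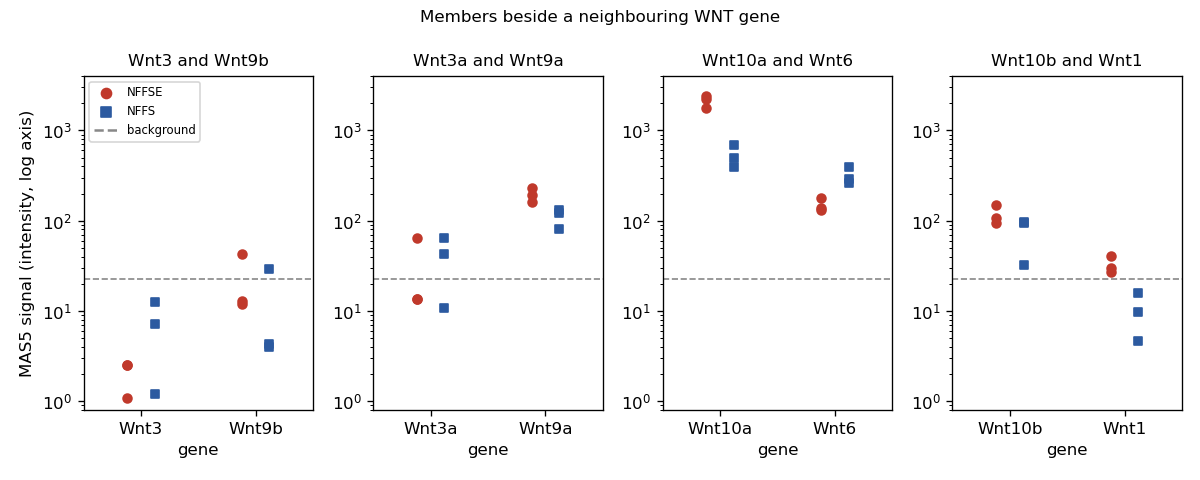
MAS5 signal (intensity, log axis) on each array of 4 ligand genes and the WNT gene beside each on the chromosome, at the brightest probe set of each gene, with NFFSE as red circles, NFFS as blue squares and the background level as a dashed line. NFFSE points lie above NFFS points for Wnt10a and below them for Wnt6, and signals are to be compared between media, not between genes.

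The log2 signals of the 5 probe sets most like that of Wnt10a over the 6 arrays, among 16757 bright enough to be compared, were those of Rab3d (Pearson's r 0.999), Atmin, Piga, Lrrk2 and Snx9 (0.998 each). These points share the same 6 arrays and the same contrast of media, and the values are a description only.

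The genes that process, release or bind WNT ligands moved in both directions. Porcn, the acyltransferase that lipidates every WNT ligand, had a mean signal of 549 ± 34.3 (SD, n = 3) in NFFSE against 162 ± 58.7 (SD, n = 3) in NFFS, 3.52-fold higher (adjusted p = 3.2e-04, limma). Tmed5, a cargo adaptor of the early secretory pathway, was 2.25-fold higher (adjusted p = 4.6e-04, limma). Wls, the carrier that takes the lipidated ligand to the surface, had a mean signal of 2795 ± 154 (SD, n = 3) and 6147 ± 573 (SD, n = 3), 2.20-fold lower (adjusted p = 5.8e-05, limma). Reck, a membrane anchor that presents Wnt7a and Wnt7b to their receptor, was at background in NFFSE on every array and at least 2.46-fold lower. Of the 8 genes, 2 were higher (25.0%) and 3 lower (37.5%), beside 10.6% and 15.0% of all genes, and their median log2 difference was -0.10. The latter include the glypican Gpc4, whose call ended under 7 of the 15 alternatives, among them the omission of NFFSE replicate 1 or NFFS replicate 1 or 3 (adjusted p = 0.051 to 0.063, limma).

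Of 17 receptors and co-receptors, 7 were lower in NFFSE (41.2%), 1 was higher (5.88%) and 9 were not called, beside 15.0% and 10.6% of all genes, with a median log2 difference of -0.49. Fzd7 had a mean signal of 1727 ± 290.2 (SD, n = 3) in NFFSE against 7581 ± 1202 (SD, n = 3) in NFFS, which is 4.39-fold lower (adjusted p = 1.1e-05, limma). Fzd3, a Frizzled of planar cell polarity, was 3.20-fold lower and Fzd1 was 2.26-fold lower. Ror2, the tyrosine kinase receptor of Wnt5a, was 3.93-fold lower (adjusted p = 3.9e-04, limma), and its relative Ror1, at background on every NFFSE array, was at least 3.00-fold lower. Lrp6, a co-receptor of the beta-catenin arm, was 1.64-fold lower, and its paralog Lrp5 was not called (log2 difference 0.45, adjusted p = 0.28, limma). Fzd9 was at least 2.97-fold higher with 2 of the 3 NFFS arrays at background. The omission of 1 array ended the calls of Lrp6 (NFFSE replicate 2, adjusted p = 0.056, limma), Ror1 (each of the NFFS arrays, 0.067 to 0.12) and Fzd9 (each of the NFFSE arrays, 0.051 to 0.066), and over the settings tried 3 to 8 receptors were called lower.

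Of 14 inhibitors measured, most of them secreted, 3 were lower (21.4%, beside 15.0% of all genes), 0 were higher (also 0 at an unadjusted p under 0.05 in limma and 0 by the methods' t-test) and 11 were not called (median log2 difference -0.32). Sfrp1, a decoy receptor, was 10.8-fold lower in NFFSE (adjusted p = 8.6e-07, limma), Wif1, which binds WNT ligands directly, was 14.1-fold lower (adjusted p = 8.7e-05, limma), and Sostdc1, which acts on the LRP co-receptors, was 1.55-fold lower, a call that ended under 5 alternatives, among them centered arrays (adjusted p = 0.091, limma) and the omission of NFFSE replicate 2 (0.051). The genes of the R-spondin arm control the number of Frizzled receptors at the surface, and not all act in the same direction. Among them Lgr5, Lgr4, Lgr6 and Znrf3 were lower (62.0-fold, 8.29-fold, at least 9.80-fold and 1.58-fold). The other 5 of 9 genes were not called (44.4% lower, beside 15.0% of all genes). The call of Znrf3 ended under 8 alternatives, among them centered arrays (adjusted p = 0.14, limma) and the omission of NFFSE replicate 1 or 2 or NFFS replicate 1 or 3 (0.078 to 0.13). The median of this list, -1.74 on the log2 scale, is the value of Rspo1, which was not called, was at background on 3 of 6 arrays and ran from -2.71 to -0.79 without 1 array.

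Downstream, of 18 genes of the beta-catenin core 5 were lower (27.8%), 1 was higher (5.56%) and 12 were not called, beside 15.0% and 10.6% of all genes (median log2 difference -0.050). The TCF/LEF factors Lef1 (at least 11.7-fold), Tcf7l1 (2.99-fold) and Tcf7l2 (2.27-fold) were lower, Dvl1, an adaptor at the receptor, was 2.34-fold higher, and Ctnnb1, beta-catenin itself, had a log2 difference of -0.021 (adjusted p = 0.93, limma). Of 15 genes known as targets of the pathway, 2 were higher (Ccnd1, 1.74-fold, and Myc, 1.62-fold), 3 were lower (Lgr5, Lef1 and Znrf3, which also stand in the lists above) and 10 were not called (median -0.26), shares of 13.3% and 20.0% near those of all genes. Both higher calls ended with the methods' t-test, in limma with no trend and with signals raised to background, and that of Myc also without NFFSE replicate 2 or 3 or NFFS replicate 1 or 3 (adjusted p = 0.051 to 0.062, limma). Axin2, the target most often read as a measure of beta-catenin signaling, had signals of 69.3 ± 31.8 (SD, n = 3) and 91.5 ± 13.9 (SD, n = 3) and a log2 difference of -0.49 (adjusted p = 0.42, limma). Of 15 genes of planar cell polarity and calcium signaling, 4 were lower (26.7%) and 1 was higher (6.67%), beside 15.0% and 10.6% of all genes. The other 10 were not called (median of the list 0.073). Among the lower were Prickle1 (9.02-fold), Plcb1 (4.60-fold) and Nfatc1 (2.70-fold), and Camk2d was higher (2.22-fold). The calls of Nfatc1 and Camk2d ended with the methods' t-test, in limma with no trend and with signals raised to background.

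**Figure D5:**
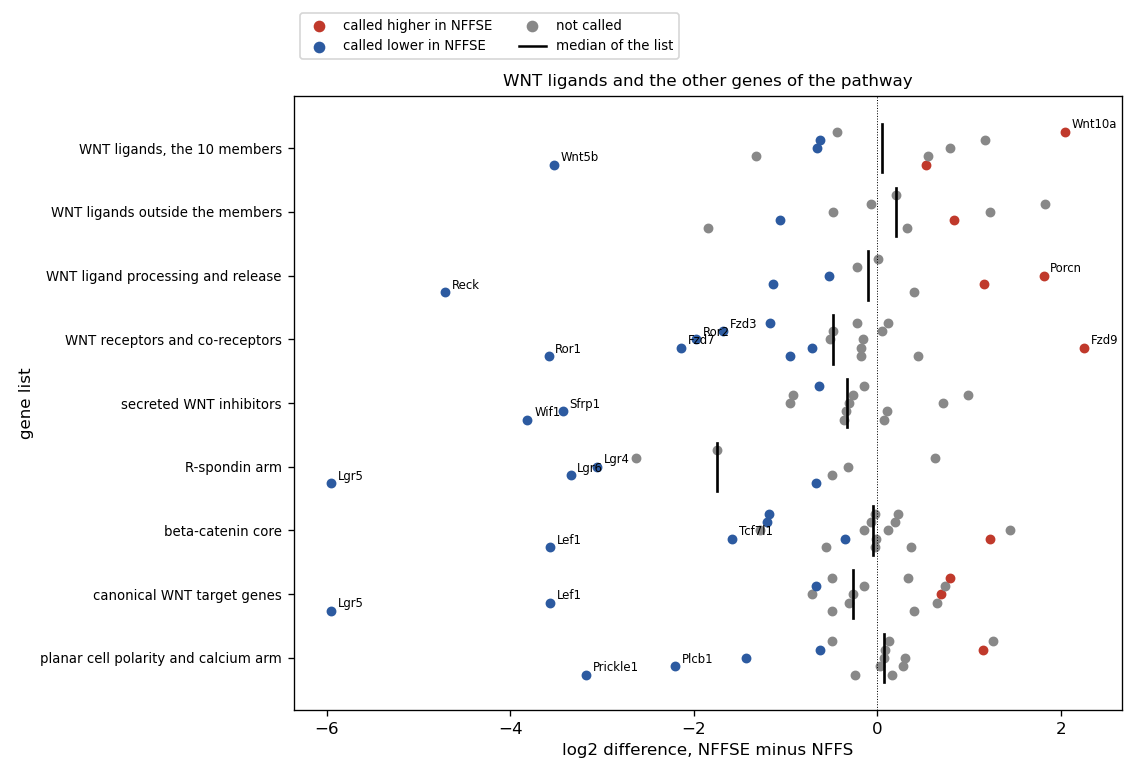
Log2 difference (NFFSE minus NFFS, horizontal axis) of each gene of the WNT pathway lists (rows), read from its brightest probe set, in red where called higher in NFFSE, blue where called lower and gray where not called, with the median of each list as a black bar and the names of called genes beyond 1.5 on the log2 scale. The ligands spread to both sides of 0, with Wnt10a at 2.05 and Wnt5b at -3.52.

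Keratinocyte markers were bright in both media, as the label of bulge cells has it, and Krt5 had a mean signal of 35579 ± 2849.7 (SD, n = 3) in NFFSE against 28201 ± 2184 (SD, n = 3) in NFFS. Of 8 such markers, Krt14, Itgb4 and Dsp were higher, Krt15 was lower and 4 were not called (37.5% higher and 12.5% lower, beside 10.6% and 15.0% of all genes). The call of Dsp ended without NFFSE replicate 2 or 3 or NFFS replicate 3 (adjusted p = 0.055 to 0.074, limma). Some markers of fibroblasts and dermal papilla cells, which also make WNT ligands, differed between the media. Of 13, 5 were lower in NFFSE (Sparc, Vcan, Col1a2, Thy1 and Vim, 38.5% beside 15.0% of all genes) and 8 were not called. None was higher (also 0 at an unadjusted p under 0.05 in limma and 0 by the methods' t-test), and the median log2 difference of the 13 was -0.59. The call of Vim ended without NFFS replicate 1 (adjusted p = 0.052, limma). The calls of Sparc, Vcan, Col1a2 and Thy1 held under all 15 alternatives. Among the markers not called, Col1a1 and Col3a1 were close to background in both media (means of 31.6 to 41.0 in NFFSE and 30.4 to 33.7 in NFFS), and Twist1 was at background on all 6 arrays. Of 4 smooth muscle and Schwann cell markers, 2 were lower (Tagln and Acta2), beside 15.0% of all genes, and 2 were not called. The call of Tagln held under all 15 alternatives, and that of Acta2 ended with the methods' t-test (adjusted p = 0.088). No marker of melanocytes (0 of 7) or leukocytes (0 of 7) was called by limma or by the methods' t-test. The same held for endothelium (0 of 5) and Merkel cells (0 of 5). Over the melanocyte, leukocyte, endothelium and Merkel cell markers, 3 were past an unadjusted p of 0.05 in limma. The balance of the 3' and 5' Gapdh controls, a sign of RNA quality, also differed, and the 3' minus the 5' signal (log2) was -0.37 ± 0.011 (SD, n = 3) in NFFSE against -0.62 ± 0.017 (SD, n = 3) in NFFS. The part of these differences in the ligand results was not tested.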

How the data were processed

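Total RNA of 6 cultures, 3 in each medium, was hybridized to Affymetrix mouse genome arrays. The intensity of each probe set was deposited on a linear scale. The submitters' processing notes name MAS5, and its version and settings are not given in the sources used here. Each array was scaled by the authors to a mean of 500.003 without the lowest and highest 2% of its signals, and the median signal ran from 56.3 to 70.5. Background correction and probe set summary are thus the authors', and no detection calls were used here. The number of arrays limits the precision.

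Of 45101 probe sets, 64 controls were left out, 34945 had 1 gene symbol in the platform annotation, 932 had several and 9160 had none. A linear model was fitted to log2 signals in limma 3.58.1 (R 4.3.3) with an intensity trend, as NFFSE minus NFFS, and p-values were adjusted over all 45037 probe sets. The script was tested on simulated data. Genes of the lists were read from their named probe set with the highest mean, and up to 4 with the smallest adjusted p were named for each list. Gpc4, Fzd9, Ror1, Lrp6, Lrp5, Ctnnb1, Axin2, Krt5, Vim, Col1a1, Col3a1 and Twist1 were named after their values were seen, to finish a count, as a paralog or because they are widely used. The members, lists and tests were chosen with earlier results of these data known, and the background level was taken from controls on these arrays.

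Arrays with the same replicate number form pairs, because the series design states that cells of each experiment were split between both media. Deviations of arrays with the same number correlated at 0.20, 0.069 and 0.11 over the probe sets with a mean of at least 38.7 in both media. A block for the replicate number was used in an alternative only. The methods name no test for the arrays and a two-tailed t-test in general (the methods' t-test). Probe sets dim in both media, with a mean under 38.7, the 40th percentile of all signals, were kept, and 15 of the 18 ligand probe sets would pass that filter. Promoter sequences are from RefSeq (GRCm38.p6).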

Additional observations from a re-analysis of the deposited data

How the results depend on the processing

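The number of ligand probe sets called higher, 2, was 1 with the methods' t-test and in limma without the intensity trend, and the number called lower, 5, was 0 in both, where 5 had an unadjusted p under 0.05. With 1 probe set a gene 3 were called lower, with the arrays centered on their medians 2, and with signals below background raised to it 1. Leaving out 1 array gave 1 to 3 called higher and 1 to 5 called lower, with 1 lower call (Wnt5b 1439373_x_at) without NFFSE replicate 2 and 2 lower calls without NFFSE replicate 3 or NFFS replicate 1. The replicate block gave 3 higher and 6 lower, and the paired fit changed no ligand call other than those of Wnt7a 1447647_at (adjusted p = 0.037, limma) and Wnt5a 1437673_at (0.046), both gained. Over all probe sets, 3463 higher and 5705 lower calls became 1935 and 3003 with the methods' t-test, 2021 and 2805 with 1 probe set a gene, and 1805 and 3220 with no intensity trend in limma. Centering gave 4975 and 3645, and leaving out 1 array gave 2411 to 3543 and 4163 to 5065. With the replicate block they were 3721 and 6082, and with signals below background raised to it 2836 and 4605. The sign turned for Wnt3a without NFFS replicate 3 (log2 difference 0.088, with a range of -1.20 to 0.088 without 1 array), for Wnt7a 1423367_at without NFFS replicate 2 (0.21, range -1.60 to 0.21), and for Wnt7a 1458334_at with the floor (0.070) and without NFFSE replicate 3 (0.49, range -1.27 to 0.49), and these probe sets were at background on 3 to 5 of the 6 arrays. Of 259 values of ligand probe sets under alternatives, 208 kept their direction and side of the threshold, 38 fell short of it, 9 passed it and 4 turned their sign. The causes were not tested. The same alternatives, applied to the 37 named list and marker genes as a choice made after seeing the data, left 25 called throughout and turned no sign, and the call of Wnt6 ended with the methods' t-test (0.067). With 3 arrays a medium and signals near background, falls of Wnt5b have lower bounds only, and no difference could be measured for Wnt3.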

Other observations

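Pathway genes that relay WNT ligands but were not named above also differed between the media. They were chosen after their values were seen. Dvl2, an adaptor at the Frizzled receptor, was 2.30-fold lower in NFFSE (adjusted p = 0.0012, limma), opposite to its paralog Dvl1 (2.34-fold higher, adjusted p = 3.0e-05, limma). Fzd2, a Frizzled that can receive Wnt5a, was 1.93-fold lower (adjusted p = 0.0081, limma), a call that ended under 4 of 15 alternatives. Vangl2, a core protein of planar cell polarity, was 1.54-fold lower (adjusted p = 0.041, limma), although its arrays overlapped between the media, and Gsk3b, a kinase that marks beta-catenin for breakdown, was 1.27-fold lower (adjusted p = 0.036, limma). These last calls were not firm. That of Vangl2 ended under 8 alternatives, among them the omission of NFFSE replicate 2 or 3 or NFFS replicate 1 or 3 (adjusted p = 0.12 to 0.15, limma), and that of Gsk3b under 7, among them centered arrays (0.47) and the omission of any NFFSE array or NFFS replicate 3 (0.068 to 0.14).

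Wnt11 has 2 annotated starts in RefSeq (GRCm38.p6), and the window at its upstream start held a TCF/LEF match 51 bases before the start. Of the 10 promoter entries of the ligands, 1 of Wnt5b and 1 of Wnt11 thus held a match to this motif, beside 3.73% of 32851 promoters. Wnt5b was lower in NFFSE and Wnt11 was not called, and a link between the motif and these results was not tested.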
